A study of Mus musculus with 6 samples.

Results

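The transcripts of 10 genes that mark macrophages were followed across 6 libraries labelled as primary mouse osteosarcomas, the bone tumors of a series that compared Cd44+/+ with Cd44-/- animals. Of the 39179 rows of the table of raw read counts, 10 carry an Ensembl identifier of 1 of these genes. They fall into 6 genes of macrophages in general (Adgre1, Cd68, Mrc1, Cd163, C1qa and Trem2) and 4 genes that in mice are best known from Kupffer cells, the resident macrophages of the liver (Clec4f, Vsig4, Timd4 and Cd5l). The tumors No244, No316 and No368 had the genotype CD44+/+; Nf2Δ2/+ and the tumors No203, No279 and No364 the genotype CD44-/-; Nf2Δ2/+, so every animal, controls included, also carried 1 mutant allele of the tumor suppressor gene Nf2. The animals had a mixed background of C57BL/6, 129/Sv and FVB. Each tumor gave 1 bulk mRNA library, in which fewer cells of a type and less RNA per cell cannot be told apart. The question put to the series was whether loss of CD44, a surface receptor for hyaluronan, changes the tumors' transcripts.

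Macrophages take up particles, dying cells and lipoproteins through surface receptors, and their identity depends on signaling by the receptor for macrophage colony-stimulating factor (Csf1r) and on the transcription factor PU.1 (Spi1). In bone the same precursors fuse to osteoclasts, the cells that resorb mineral, and macrophages are also common in osteosarcoma. Kupffer cells sit in the sinusoids of the liver beside endothelial cells and hepatocytes, and clear bacteria, complement-coated particles and old erythrocytes from the blood.

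Between 18076388 and 26954142 reads were counted per tumor, and 3 counts, taken as the smallest detectable level, correspond to 0.0990 to 0.252 CPM (counts scaled to a common library size with the TMM factors of edgeR). Counts of Cd44 itself were lower in all 3 Cd44-/- tumors (15.7 to 61.8 CPM) than in the 3 Cd44+/+ tumors (137.3 to 243.6 CPM). Which part of Cd44 the null allele lacks is not given in the sources used here. No316 and No368 agreed within sampling noise at 87.2% of genes, against 15.7% to 24.0% for the other 14 pairs of tumors, and the counts of all 10 genes agreed within sampling noise between them. They were therefore counted as 1 sample in means and SDs, which leaves n = 2 for Cd44+/+ and n = 3 for Cd44-/-. In No244, 55.2% of all counts fell on mitochondrial genes, against 5.94% to 12.5% in the other libraries. Counts of Y-linked genes summed to 28.1 and 39.6 CPM in No279 and No364, and to at most 1 count in each other library. The 8 osteoblast genes, by which the labelled tissue was checked, summed to 13522 CPM in No279 and 3033 CPM in No364 and to 17126 to 39047 CPM in the other 4 tumors, with none at 0 in any library. Of the sum in No279, 11990 CPM were Col1a1, a collagen that fibroblasts also make. The more bone-specific Sp7, Alpl, Ibsp, Bglap and Dmp1 were at 0.363 to 7.16 CPM in No279 and 0.314 to 19.6 CPM in No364, against 146.6 to 4820 CPM in the other 4 tumors. For No364 all 8 markers were thus below the other 4 tumors and go against the labelled tissue. For No279 they were mixed, with Col1a1 inside the range of the other 4 tumors (8482 to 29441 CPM) and the other markers below theirs. The tissue of origin was not tested for No279 or No364. Fold changes of the Kupffer-type genes and the numbers of genes called are given with and without No364. Medians and counts of single gene lists are given with No364 included.

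In GENCODE M21 (GRCm38) all 10 are protein-coding genes. Adgre1 (ENSMUSG00000004730) spans chr17:57358691-57483527 on the plus strand and Cd68 (ENSMUSG00000018774) spans chr11:69664213-69666153 on the minus strand. Mrc1 (ENSMUSG00000026712) spans chr2:14229392-14332057 on the plus strand and Cd163 (ENSMUSG00000008845) spans chr6:124304656-124330527 on the plus strand. C1qa (ENSMUSG00000036887) spans chr4:136895917-136898803 on the minus strand and Trem2 (ENSMUSG00000023992) spans chr17:48346401-48354147 on the plus strand. Clec4f (ENSMUSG00000014542) spans chr6:83644542-83656187 on the minus strand and Vsig4 (ENSMUSG00000044206) spans chrX:96247203-96293438 on the minus strand. Timd4 (ENSMUSG00000055546) spans chr11:46810800-46844332 on the plus strand and Cd5l (ENSMUSG00000015854) spans chr3:87357881-87371073 on the plus strand. Of the 10, only Mrc1 is overlapped by another annotated gene.

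The 4 Kupffer-type genes were highest in the same tumor, and the sequences before their start sites are shown for this reason. They were taken from the RefSeq promoter windows (GRCm38.p6), which hold 8 of the 10 genes and not Adgre1 and C1qa. Each is printed 5′ to 3′ on the strand of the gene and ends before the first annotated base. Capitals mark GAGGAA or its reverse complement TTCCTC, a core of the sites bound by PU.1 and its relative SpiC. Clec4f is at chr6:83656188-83656366 on the minus strand, Vsig4 at chrX:96293439-96293688 on the minus strand, Timd4 at chr11:46810549-46810798 on the plus strand and Cd5l at chr3:87357631-87357880 on the plus strand.
Clec4f: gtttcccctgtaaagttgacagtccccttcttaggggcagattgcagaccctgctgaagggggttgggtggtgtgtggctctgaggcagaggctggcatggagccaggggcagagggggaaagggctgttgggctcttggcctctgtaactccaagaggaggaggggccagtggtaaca
Vsig4: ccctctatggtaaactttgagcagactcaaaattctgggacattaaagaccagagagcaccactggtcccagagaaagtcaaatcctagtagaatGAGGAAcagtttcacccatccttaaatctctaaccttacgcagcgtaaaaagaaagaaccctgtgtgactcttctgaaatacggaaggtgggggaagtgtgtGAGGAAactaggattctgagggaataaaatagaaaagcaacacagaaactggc
Timd4: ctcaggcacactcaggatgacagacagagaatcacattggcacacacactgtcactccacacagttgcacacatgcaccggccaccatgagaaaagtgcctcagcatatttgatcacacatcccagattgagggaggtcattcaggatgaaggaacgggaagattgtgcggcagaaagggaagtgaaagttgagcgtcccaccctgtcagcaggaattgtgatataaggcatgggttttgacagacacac
Cd5l: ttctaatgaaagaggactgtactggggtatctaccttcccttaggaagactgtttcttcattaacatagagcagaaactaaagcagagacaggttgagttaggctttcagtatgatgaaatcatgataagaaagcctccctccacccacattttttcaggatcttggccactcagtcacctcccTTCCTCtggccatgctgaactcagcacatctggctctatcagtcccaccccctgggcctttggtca

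In these windows Vsig4 had 2 matches, 155 and 53 bases before the start, and Cd5l had 1, at 66 bases. Timd4 and Clec4f had none. Over the 250 bases upstream of all 32851 promoters in the table, searched on both strands, 23.3% held GAGGAA, and among the 8 genes with a window it was found for 5 (Cd68, Mrc1, Trem2, Vsig4 and Cd5l). The MAF motif TGCTGAC was found at Timd4 alone among the 8 and in 3.81% of all windows. AGGTCA, a motif of nuclear receptors, was found for Trem2, Clec4f and Timd4 and in 14.0% of all windows, and TGGGAA, a core of RBPJ sites, for Cd68 and Clec4f and in 21.6%. The matches of Clec4f lie in the 71 bases of its window that fall inside the annotated gene and are not printed. None of the 4 motifs was found for all 4 Kupffer-type genes, and a match is a description of these letters only.

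Adgre1 encodes F4/80, the surface protein by which mouse macrophages are usually recognized. Among the Cd44+/+ tumors it was counted at 2.60 CPM in No244, 55.6 CPM in No316 and 56.2 CPM in No368. Among the Cd44-/- tumors it was at 3.57 CPM in No203, 13.3 CPM in No279 and 12.8 CPM in No364. The near-identical pair was the highest and No244 the lowest, so the Cd44-/- values lay between the Cd44+/+ values and the genotypes overlapped. Within counting error (95% binomial range), No279 did not differ from No364, nor No203 from No244. The means were 29.2 ± 37.7 CPM (SD, n = 2) in Cd44+/+ and 9.90 ± 5.49 CPM (SD, n = 3) in Cd44-/-.

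C1qa, the A chain of the complement component C1q, followed the same order at its ends. It was at 23.2 CPM in No244, 245.0 CPM in No316 and 252.6 CPM in No368. In No203, No279 and No364 it was at 34.3, 57.9 and 86.0 CPM. All 3 Cd44-/- tumors lay between No244 and the pair, with means of 136.0 ± 159.5 CPM (SD, n = 2) and 59.4 ± 25.9 CPM (SD, n = 3). The genes of the other chains, C1qb and C1qc, lie in the same gene cluster and were counted at 35.4 and 11.6 CPM in No244 and at 93.2 and 85.7 CPM in No364. Per count of C1qa, No244 gave 1.53 counts of C1qb and 0.50 of C1qc. In the other 5 tumors the ranges were 0.905 to 1.08 and 0.831 to 1.08, so the 3 chains kept close to one ratio there and not in No244.

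Mrc1 encodes the mannose receptor CD206, an endocytic receptor. It was at 6.81 CPM in No244, 94.1 CPM in No316 and 91.0 CPM in No368, and at 35.8 CPM in No203, 16.2 CPM in No279 and 26.4 CPM in No364. Again the pair was highest, No244 lowest and the Cd44-/- tumors between them (49.7 ± 60.6 CPM, SD, n = 2, and 26.1 ± 9.78 CPM, SD, n = 3). Mrc1 overlaps Mir511 on the same strand, so reads of that microRNA's precursor could not be separated from it.

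Trem2, a lipid-sensing receptor that signals through the adaptor Tyrobp, was at 5.63 CPM in No244 and at 42.5 and 43.4 CPM in the near-identical pair. It was at 8.21, 12.3 and 7.38 CPM in No203, No279 and No364. The genotypes overlapped through No244 only, which did not differ from No364 within counting error. The means were 24.3 ± 26.4 CPM (SD, n = 2) and 9.31 ± 2.66 CPM (SD, n = 3).

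Between No244 and No316, tumors of the same genotype, Adgre1 differed 21.3-fold, Mrc1 13.8-fold, C1qa 10.6-fold and Trem2 7.56-fold. No244 is also the library with 55.2% of counts on mitochondrial genes, whose part in these differences was not tested. The spread within Cd44+/+ was wider than the distance between the genotype means for each of the 4 genes. Among the 8 genes that passed edgeR's filter on low counts, the pair with the most similar profile was Adgre1 and C1qa, at a root mean square distance of 0.47 in log2 CPM centered on each gene's mean over the 6 tumors, followed by C1qa and Trem2 at 0.51 and by Mrc1 and C1qa at 0.65. Measured over all genes tested in the same way, the genes nearest to Adgre1 were Siglec1 (0.20), the sialoadhesin of tissue macrophages, Zfp955a (0.27) and Fcgr3 (0.29), an Fc receptor. Nearest to C1qa were C1qb (0.25), Sik1 (0.25) and Cd200r4 (0.29), and nearest to Trem2 were Ccdc82 (0.26), 4930503L19Rik (0.27) and Cd200r4 (0.28). Mrc1 had no gene closer than Xrcc3 (0.38), Mkx (0.39) and Gm22077 (0.42). The 6 tumors give few points, and No316 and No368 are not independent among them.

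Cd68, a glycoprotein of lysosomal membranes in macrophages and osteoclasts, departed from these 4 genes. It was at 105.0 CPM in No244, 81.2 CPM in No316 and 78.9 CPM in No368. In the Cd44-/- tumors it was at 269.2 CPM in No203, 310.7 CPM in No279 and 48.7 CPM in No364. No279 and No203 were above every Cd44+/+ tumor and No364 below every one, with means of 92.5 ± 17.7 CPM (SD, n = 2) and 209.6 ± 140.8 CPM (SD, n = 3). Per count of Adgre1 there were 40.3 counts of Cd68 in No244, 75.4 in No203 and 23.4 in No279, but 1.46, 1.41 and 3.80 in No316, No368 and No364. C1qa per count of Adgre1 stayed between 4.35 and 9.60 over the same tumors.

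The genes nearest to Cd68 were Spi1 at a distance of 0.17, Ccr1, a chemokine receptor of monocytes and osteoclasts, at 0.23, and Prdm16 at 0.23. Spi1 was at 69.6 CPM in No203 and 109.5 CPM in No279, against 15.8 to 31.0 CPM in the other 4 tumors. The distance between Cd68 and Adgre1 was 2.28. The 10 osteoclast genes summed to 13331 CPM in No244, 11898 CPM in No203 and 9989 CPM in No279, and to 880.0, 874.7 and 905.2 CPM in No316, No368 and No364. The tumors with many counts of Cd68 per Adgre1 were thus the 3 with high osteoclast sums. Acp5, the tartrate-resistant acid phosphatase of osteoclasts, was at 2701 to 6876 CPM in those 3 and at 166.4 to 309.5 CPM in the others. Ctsk, the collagen-degrading cathepsin K, and Mmp9, a gelatinase, followed the same division, at 1862 to 3124 and 2095 to 3870 CPM against 202.2 to 476.1 and 114.5 to 249.6 CPM. Atp6v0d2, a proton pump subunit needed for fusion, was at 173.5 to 379.1 CPM against 17.3 to 82.8 CPM. None of the 10 osteoclast genes was at 0 in any tumor. In No244 the number of Cd68 counts per Adgre1 rests on 31 counts of Adgre1. Cd68 itself was at 105.0 CPM in No244, against 269.2 and 310.7 CPM in No203 and No279, although No244 had the highest osteoclast sum. The part of osteoclast RNA in the level of Cd68 was not tested.

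Cd163, the scavenger receptor for complexes of haptoglobin and hemoglobin, was the least abundant of the 6 genes per length of transcript in each tumor. It was at 2.27 CPM in No244, 4.17 CPM in No316 and 3.82 CPM in No368, and at 1.74, 7.89 and 1.94 CPM in No203, No279 and No364. No279 was highest, at 1.89 times No316, and No316 was at 1.84 times No244. No368 and No244 differed beyond counting error, while No244, No364 and No203 formed a row of neighbors that did not differ within it. The means of 3.13 ± 1.22 CPM (SD, n = 2) and 3.86 ± 3.49 CPM (SD, n = 3) differed by less than either SD. The nearest genes were Elk1 (0.11), Gm16302 (0.12) and Aak1 (0.13).

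**Figure D1:**
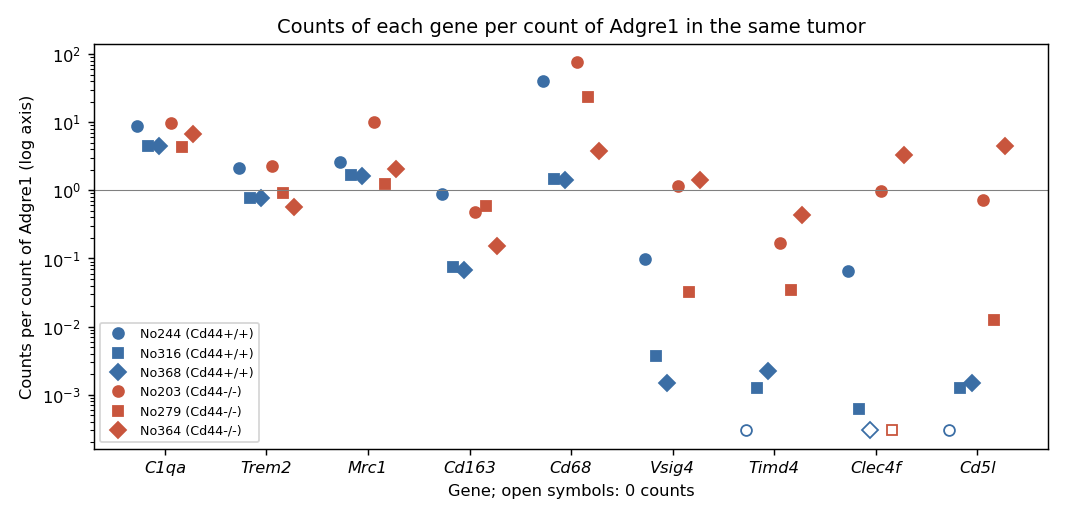
Counts of each gene per count of Adgre1 in the same tumor, on a log axis, with symbols as in the plot of levels and open symbols for 0 counts. C1qa lies within 4.35 to 9.60 in all tumors, Cd68 reaches 23.4 to 75.4 in No244, No203 and No279, and the Kupffer-type genes are near or above 1 in No203 and No364, apart from Timd4.

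Clec4f encodes a C-type lectin that in mice is found almost only on Kupffer cells. It gave 2, 1 and 0 counts in No244, No316 and No368. In the Cd44-/- tumors it gave 88 counts in No203, 0 in No279 and 820 in No364, which is 3.49, 0 and 42.9 CPM. No364 was highest and No203 second, while No279, of the same genotype, was at 0 like No368, so the genotypes overlapped. The 0 counts in No279 allow up to 0.0990 CPM, counting error only.

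Vsig4, the complement receptor CRIg that binds C3 fragments on particles, gave 3, 6 and 2 counts (0.25, 0.21 and 0.084 CPM) in No244, No316 and No368. It gave 104, 13 and 344 counts (4.12, 0.43 and 18 CPM) in No203, No279 and No364. All Cd44-/- tumors were above all Cd44+/+ tumors, but No279 did not differ from No244 within counting error. The means were 0.199 ± 0.0748 CPM (SD, n = 2) and 7.52 ± 9.27 CPM (SD, n = 3).

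Timd4, a receptor for phosphatidylserine on dying cells, was the lowest of the 4 per length of transcript in No364, at 2.58 CPM per kb. It gave 0, 2 and 3 counts in the Cd44+/+ tumors and 15, 14 and 107 counts in No203, No279 and No364, which is 0.59, 0.46 and 5.60 CPM. The genotypes did not overlap, and No203 and No279 did not differ within counting error. Cd5l, a secreted protein of macrophages also called AIM, gave 0, 2 and 2 counts in the Cd44+/+ tumors and 66, 5 and 1084 counts in the Cd44-/- tumors (2.62, 0.17 and 56.7 CPM). It did not overlap either, though No279 did not differ from No368 within counting error.

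No364 held 92.1% of the CPM of Clec4f summed over the 6 tumors, 77.9% of that of Vsig4, 81.7% of that of Timd4 and 95.1% of that of Cd5l. Over the next tumor, No203, it was higher 12.3-fold, 4.37-fold, 9.41-fold and 21.7-fold in the same order. As a share of all counts in a library, the 4 genes summed to 87.4 parts per 1000000 in No364 (exact 95% binomial interval 83.9 to 91.0, counting error only) and 12 in No203 (10.7 to 13.6). No279 gave 1.30 (0.891 to 1.84), and No244, No316 and No368 gave 0.237 (0.0770 to 0.553), 0.502 (0.251 to 0.898) and 0.387 (0.156 to 0.798). The intervals of No364 and No203 were apart from each other and from those of the other 4 tumors, while the intervals of No279 and No316 touched.

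The ratio of these genes to one another also differed between No203 and No364. Per count of Clec4f there were 1.18 counts of Vsig4 and 0.750 counts of Cd5l in No203, against 0.420 and 1.32 in No364. Per length of transcript, Cd5l was the highest of the 4 in No364 at 27.9 CPM per kb, before Clec4f at 17.4 and Vsig4 at 12.1. In No203 Vsig4 led at 2.78 CPM per kb. Set against the general macrophage genes on the same scale, C1qa was at 82.7 and Cd68 at 38.76 CPM per kb in No364, so that Cd5l was the third of the 10 genes there. In No203 Cd68 was at 214.2, C1qa at 32.9 and Mrc1 at 5.61 CPM per kb, all above Vsig4. Per count of Adgre1, No364 held 3.35 counts of Clec4f and No203 0.978, whereas the near-identical pair, with the most Adgre1, held at most 0.000625.

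Hepatocyte genes were highest in No364 like the Kupffer-type genes, but their level in No203 was a much smaller part of that in No364. The 10 hepatocyte genes summed to 123160 CPM in No364, of which albumin (Alb) took 60281 CPM, and to 41.0 to 150.4 CPM in the other 5 tumors. No203 had the highest sum of these 5. None of the 10 was at 0 in any tumor, and all were highest in No364. The level in No203 was 0.0339% to 0.201% of that in No364 for the 10 hepatocyte genes, and 4.61% to 22.9% for the 4 Kupffer-type genes, so these ranges did not overlap. Of the genes of liver sinusoidal endothelium and stellate cells, Stab2, a scavenger receptor of sinusoids, was at 17.1 CPM in No364 and 9.56 CPM in No203, and at 0.10 to 1.6 CPM elsewhere. Clec4g, another lectin of liver sinusoids, gave 305 counts in No364, 5 in No203 and 0 in each other tumor. The 7 measured genes of this list summed to 71.4 CPM in No364, 19.3 CPM in No203 and 7.65 to 9.24 CPM in the rest. Of the 7, 6 were highest in No364, and Oit3 was highest in No279 at 7.03 CPM. Second place was less uniform. Gpr182 was next highest in No203, at 3.93 CPM after 5.81 CPM in No364. Reln was lower in No203 (1.67 CPM) than in No244, No316 and No368, and Lrat and Hand2 gave 1 and 0 counts in No203. The part of liver cells in the counts of Clec4f, Vsig4, Timd4 and Cd5l was not tested.

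**Figure D2:**
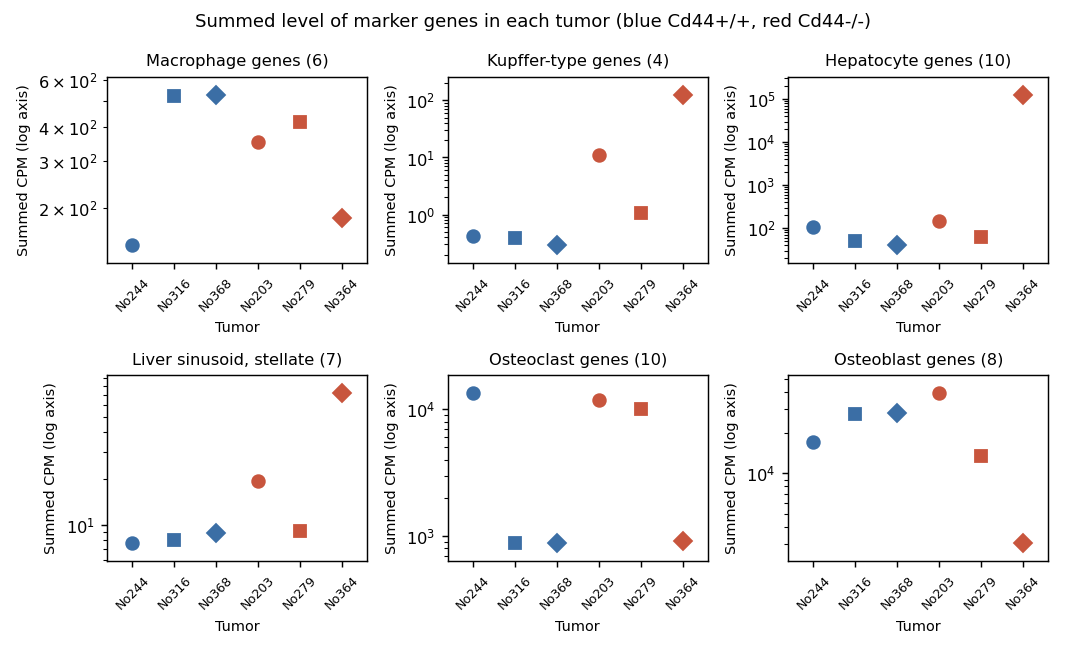
Summed CPM of 6 groups of marker genes in each tumor, on log axes that differ between panels, Cd44+/+ in blue and Cd44-/- in red. No364 is highest for Kupffer-type, hepatocyte and liver sinusoid genes and lowest for osteoblast genes, and No244, No203 and No279 are highest for osteoclast genes.

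The genotypes were then compared for each gene with the quasi-likelihood test of edgeR over the 16839 genes that passed its filter on low counts. Of all genes tested, 0 (0%) had an adjusted p under 0.05, and so 0 of the 8 tested among the 10 genes. At an unadjusted p under 0.05, 1085 genes (6.44%) were higher and 725 (4.31%) lower in Cd44-/-. This fit takes No316 and No368 as separate replicates. With the pair summed to 1 sample, 761 of 17844 genes had an unadjusted p under 0.05, of which 324 were higher, so the count was lower by more than 1.5 times and most of these genes were then lower in Cd44-/-, while edgeR again called 0 genes at an adjusted p under 0.05. The filter kept 8 of the 10 genes, all but Clec4f and Cd5l, and of the 2 Kupffer-type genes kept, both passed through the tumors in which they were high. The Cd44-/- libraries were all above the Cd44+/+ libraries for 1598 genes tested (9.49%) and all below for 1611 (9.57%). Of the 8 genes tested, Vsig4 and Timd4 lay above and 6 overlapped. Of the 2 not tested, Cd5l lay above and Clec4f overlapped.

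Among the general macrophage genes the estimates were below 0 for 4 and above 0 for 2, of which Cd163 turned below 0 by limma-voom (-0.14), without No244 (-0.06) and without No279 (-0.90). The 95% intervals of all 6 held 0. The log2 fold change of Cd44-/- over Cd44+/+ was -1.95 ± 1.06 (SE) for Adgre1, -1.55 ± 0.86 for C1qa, -1.29 ± 0.88 for Mrc1 and -1.71 ± 0.75 for Trem2, and it was 1.25 ± 0.68 for Cd68 and 0.17 ± 0.75 for Cd163. The smallest adjusted p of the 6 by edgeR was 0.463, for Trem2, whose interval ran from -3.51 to 0.08. The interval of Adgre1 ran from -4.48 to 0.59 and that of Cd68 from -0.38 to 2.87, so neither interval excludes a difference of 0. Without No244, edgeR gave an unadjusted p under 0.05 for 7 of the 10 genes, 3 of them higher, beside 1929 of 17783 genes. The remaining Cd44+/+ libraries are then the near-identical pair, which is counted elsewhere as 1 sample, and with the pair summed and No244 kept 3 of the 10 genes had such a p.

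Of the Kupffer-type genes, Vsig4 had a log2 fold change of 5.37 ± 1.44 (SE) and Timd4 of 4.83 ± 1.41, with adjusted p of 0.452 for both by edgeR. Fitted without the filter, Clec4f had 7.98 ± 2.61 and Cd5l 8.21 ± 2.24, with adjusted p of 0.495 for both by edgeR. The estimates rest on 3 to 11 counts per gene over the 3 Cd44+/+ libraries, and their size depends on those few counts. Without No364 they were 3.65 for Vsig4, 2.78 for Timd4, 4.89 for Clec4f and 4.47 for Cd5l.

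The Wald test of DESeq2, the tool named in the study's methods, called 419 of 17952 genes (2.33%) at an adjusted p under 0.05. All 4 Kupffer-type genes were among them, each higher in Cd44-/-, with adjusted p by DESeq2 of 0.0171 for Clec4f, 0.00395 for Vsig4, 0.0299 for Timd4 and 0.000974 for Cd5l. None of the 6 general macrophage genes was called. With No364 left out, DESeq2 called none of the 4, with adjusted p of 0.324 for Clec4f, 0.0928 for Vsig4 and 0.125 for Cd5l and none given for Timd4, and called Cd68 in their place (log2 fold change 1.71, adjusted p 0.00532). With No316 and No368 summed to 1 sample, Vsig4 (adjusted p 0.0497 by DESeq2) and Cd5l (0.0121) were called and Timd4 and Clec4f were not.

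**Figure D3:**
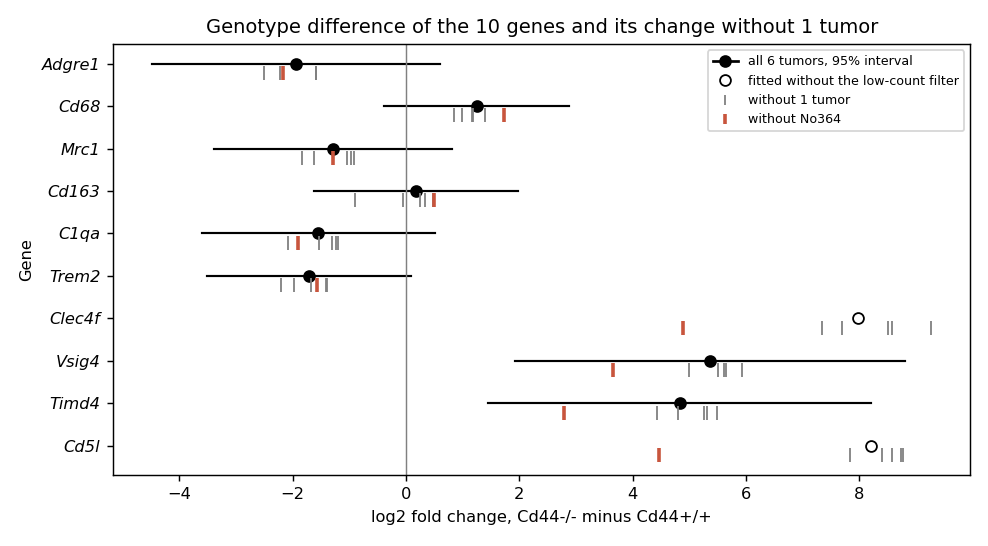
Log2 fold change of Cd44-/- over Cd44+/+ for the 10 genes by edgeR, with its 95% interval for the genes that passed the low-count filter and open circles for the 2 fitted without it. Ticks give the value without each tumor in turn, in red without No364, which lowers all 4 Kupffer-type genes.

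The wider macrophage program was read from lists of genes. Counts at an unadjusted p under 0.05 in these lists are to be read beside the 6.44% higher and 4.31% lower over all genes, and they rest on the pair as separate replicates. Over all list genes, 28 of 128 had such a p, and 7 of 137 with No316 and No368 summed. These totals also cover the lists for hepatocytes, liver sinusoids, osteoclasts, osteoblasts and other immune cells, so they do not describe macrophage genes alone. Of the 28, 9 were hepatocyte genes, which were all highest in No364. Without No364, 15 of 129 list genes had such a p. Of 20 genes of the macrophage lineage, all tested, none was called by edgeR, 4 had an unadjusted p under 0.05, all lower in Cd44-/-, and the median log2 fold change was -0.44 beside 0.11 over all genes tested. Csf1r, the receptor on which macrophages and osteoclasts depend, was at 278.3 CPM in No244, 193.2 CPM in No316 and 197.7 CPM in No368 and at 252.5, 360.0 and 98.0 CPM in No203, No279 and No364. Unlike Adgre1, it was not low in No244. Lyz2, the lysozyme of myeloid cells, ran instead from 63.5 CPM in No244 and 148.5 CPM in No203 to 1217 CPM in No316, an order in which its ends matched those of Adgre1. Laptm5, a lysosomal protein of blood cells, was highest in No244 at 624.2 CPM, and Tyrobp, the adaptor of Trem2, highest in No279 at 285.9 CPM, so members of the lineage differed in which tumor was highest.

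Of 12 genes tested for C1q, Fc receptors and the uptake of dying cells, 1 had an unadjusted p under 0.05. This was Stab1, a scavenger receptor of macrophages and sinusoidal endothelium, with a log2 fold change of -1.76 and an adjusted p of 0.452 by edgeR, and the median of the 12 was -0.04. Marco, a scavenger receptor found on Kupffer cells, gave 62 counts in No364 and at most 4 in each other tumor. Of 10 lysosome and lipid genes linked to Trem2, 1 had an unadjusted p under 0.05 (Fabp5, higher) and the median was 0.42. Apoe, the apolipoprotein made by macrophages and hepatocytes alike, was at 14210 CPM in No364 and at 172.2 to 1150 CPM elsewhere, an order unlike that of Trem2. Arg1, an enzyme of alternative activation that hepatocytes also make, was at 346.2 CPM in No364 and at 0.336 to 6.21 CPM elsewhere. Of 8 tested genes of alternative activation 3 were higher at an unadjusted p under 0.05, and of 9 of inflammatory activation 2 were higher, Cxcl10 and Ptgs2, with medians of 0.77 and 0.63.

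The genes of a wider Kupffer list were highest in different tumors. Of its 9 genes tested, 0 had an unadjusted p under 0.05 and the median was 0.12, beside 0.11 for all genes tested. Of its 10 genes, 4 were highest in No364 (Marco, Folr2, Nr1h3 and Slc40a1). Marco, which was not tested, gave only 4 counts in No203 and 2 in No279, near the smallest detectable level. Folr2 and Slc40a1 were next highest in No316, and Nr1h3 in No244 at 44.6 CPM. Slc40a1, the iron exporter ferroportin, was at 129.6 CPM in No364 and at 9.18 to 46.3 CPM elsewhere. Id3, a transcriptional regulator, was lowest in No364 at 19.7 CPM and highest in No203 at 465.1 CPM. Monocyte genes summed to 153.7 CPM in No279, 78.9 CPM in No364 and 38.1 to 71.2 CPM in the other 4. The sum of the neutrophil genes was also highest in No279, at 100.6 CPM against 40.8 to 53.3 CPM. S100a8, S100a9 and Csf3r were at 31.5, 44.6 and 21.5 CPM there. The genes were mixed, as 3 of the 10 were highest in No279 and 4 in No203, and 3 gave 0 counts in No279. T, NK and B cell genes summed to 21.6 CPM in No364, where 9 of the 12 were highest, and to 3.48 to 13.7 CPM elsewhere. Dendritic cell genes summed to 27.9 to 41.1 CPM, with 4 of 7 highest in No364. Of 8 genes of macrophages of other tissues, 5 were highest in No364, although their sum was lowest there, at 119.7 CPM. By edgeR none of these lists held a gene called.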

How the data were processed

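The data are bulk mRNA libraries of 6 tumors. For each tumor the authors deposited unnormalized counts per Ensembl gene. Per the study's methods and the submitters' processing notes, stranded libraries (TruSeq) were sequenced from 1 end, base calls converted with bcl2fastq 1.8.4, reads aligned to GRCm38 with HISAT2 2.0.2 and counted with featureCounts of Subread 2.0.0. How the counting treated strand and reads with several matches is not given in the sources used here. The labels' extraction text speaks of cell lines, whereas the tissue label and the methods name tumor tissue.

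Of 39179 identifiers, 37607 matched a symbol in GENCODE M21. CPM were scaled with TMM factors, and CPM per kb used the union of exons. Genotypes were compared over all 6 libraries with edgeR 4.0.16 in R 4.3.3 (low counts removed by filterByExpr, quasi-likelihood F test, p adjusted by Benjamini-Hochberg over all genes tested and called under 0.05). Nothing states that samples came from separate litters or batches, and p-values measure the spread between these samples. Except where they were summed or 1 was left out, No316 and No368 entered the fits as separate replicates. The spread within Cd44+/+ then rests partly on a near-identical pair. Sampling noise of a pair was the 95% binomial range. Alternatives were other scalings and filters, DESeq2 1.42.0, limma-voom (limma 3.58.1) and leaving out each tumor. DESeq2 runs with a tumor left out or No316 and No368 summed were added after seeing the data. The fits were tested on simulated data. The 10 genes and all lists were chosen with earlier results of these data known. Named genes are the 10, Cd44, up to 4 of the most abundant genes of each list, the 3 genes nearest to each gene tested, and genes overlapping them. Sp7, Alpl, Ibsp, Bglap, Dmp1, Runx2, Stab1, Stab2, Clec4g, Lrat, Hand2, Marco, Arg1, Fabp5, Cxcl10, Ptgs2, Slc40a1, Nr1h3 and Id3 were named after their values were seen, where outside that rule.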

Additional observations from a re-analysis of the deposited data

How the results depend on the processing

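0 genes were called by edgeR under each scaling, filter and left-out tumor tried, and 0 by limma-voom. DESeq2 called 419 genes with its defaults and 1195 without its Cook's distance filter, and 432, 2394 and 1196 with No364, No203 or No279 left out, and 146 with No316 and No368 summed. In the same order it called 4, 4, 1, 3, 4 and 2 of the 10 genes. Of the list genes it called 4, 18, 3, 38 and 18 in the first 5 of these settings and 0 in the last. Leaving out 1 tumor in edgeR left the 3 counts at 0. Cd163 changed direction, from 0.17 to -0.14 by limma-voom and to -0.92 by DESeq2 without No279, and ran from -0.90 (without No279) to 0.50 with 1 tumor left out in edgeR, at -0.06 without No244. Of 174 values of the 10 genes under alternatives, 152 kept their direction and side of the threshold, 18 passed it in DESeq2 and 4 reversed, all of Cd163. Because edgeR and limma-voom called 0 genes in every setting, only the direction could differ there. The 152 also include Timd4 by DESeq2 without No364, which had no adjusted p. Leaving out 1 tumor gave -2.51 to -1.58 for Adgre1 and 0.85 to 1.72 for Cd68. The cause of these changes was not tested. No paired analysis was possible because each tumor has a number of its own. With 3 libraries per genotype, of which a pair is nearly the same, and counts of at most 6 per library for the Kupffer-type genes in Cd44+/+, small differences were not detectable. Large ones were not called by edgeR either. Its smallest adjusted p over all genes was 0.452, and Alb was not called at a log2 fold change of 9.12. The 0 calls by edgeR therefore do not show equal levels in the 2 genotypes.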
